A study of Mus musculus with 13 samples.

Results

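A set of 10 genes that are recurrently mutated, rearranged, or deleted in human myeloid leukemia (*Dnmt3a*, *Tet2*, *Idh1*, *Idh2*, *Ezh2*, *Suz12*, *Asxl1*, *Kmt2a*, *Runx1*, and *Npm1*) was followed in mouse hematopoietic stem and progenitor cells (HSPCs). Its members were taken by name from a raw count table of 54838 genes, in which all 10 were found, and only their expression was measured, not mutations in them. All 10 passed the filter on low counts, which kept 17795 genes for testing.

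Bulk RNA-Seq was performed on 50000 sorted lineage-negative, cKit+ (Lin-cKit+) BM cells per mouse, from 3 control, 3 p53mut, 3 NrasG12D, and 4 NPmut mice. All carried *Mx1-Cre*, a Cre recombinase driven by an interferon-inducible promoter. Control mice had no other allele, p53mut mice carried p53 R172H/+ (a missense mutation in the DNA-binding domain of the tumor suppressor), NrasG12D mice carried Nras G12D/+ (an activated form of the small GTPase NRAS), and NPmut mice carried both alleles. For the NrasG12D mice the sample titles read G12D and the genotype label G21D, and the name in the titles was used. The mutant alleles lay at the endogenous loci and needed Cre to be expressed. Control and single-mutant mice received 3 injections of 100 µg pI-pC, an inducer of interferon, at about 6 weeks of age and were sampled as age-matched mice. NPmut mice received none, Cre being active without induction, and were moribund with leukemia when sampled. In every comparison of NPmut mice with another group, genotype, injection, and stage of disease therefore cannot be told apart.

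The members act on the same layers of gene control. DNMT3A adds methyl groups to cytosines in DNA and TET2 oxidizes them, a reaction that uses 2-oxoglutarate, which the isocitrate dehydrogenases IDH1 (cytosol) and IDH2 (mitochondria) produce. EZH2 and SUZ12 are the catalytic and a core subunit of polycomb repressive complex 2 (PRC2), which methylates lysine 27 of histone H3, and ASXL1 is a partner of the deubiquitinase BAP1, which removes ubiquitin from histone H2A. KMT2A, the protein broken by MLL translocations, methylates lysine 4 of histone H3 and keeps *Hox* genes active in early progenitors. RUNX1 is the DNA-binding partner of CBFβ in blood stem cells, and NPM1 is an abundant nucleolar chaperone. In patients most of these genes are hit in the coding sequence, so that their RNA level and their mutation are separate questions.

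A distal and a proximal promoter drive *Runx1* in blood, and the count table sums the transcripts from both. They are printed with the promoter of *Kmt2a*, the member on which the fold changes turn, each as 250 bases before to 50 bases after a RefSeq start (GRCm38.p6), 5′ to 3′ on the gene's strand, with CG dinucleotides, the sites of DNA methylation, in capitals.
Runx1, distal start, chr16:92826025-92826324, minus strand: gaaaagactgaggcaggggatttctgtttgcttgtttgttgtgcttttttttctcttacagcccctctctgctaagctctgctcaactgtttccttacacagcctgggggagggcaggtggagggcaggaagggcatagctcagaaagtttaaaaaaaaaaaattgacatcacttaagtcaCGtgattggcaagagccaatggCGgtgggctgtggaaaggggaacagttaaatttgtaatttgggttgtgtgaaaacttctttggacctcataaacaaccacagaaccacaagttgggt
Runx1, proximal start, chr16:92697280-92697579, minus strand: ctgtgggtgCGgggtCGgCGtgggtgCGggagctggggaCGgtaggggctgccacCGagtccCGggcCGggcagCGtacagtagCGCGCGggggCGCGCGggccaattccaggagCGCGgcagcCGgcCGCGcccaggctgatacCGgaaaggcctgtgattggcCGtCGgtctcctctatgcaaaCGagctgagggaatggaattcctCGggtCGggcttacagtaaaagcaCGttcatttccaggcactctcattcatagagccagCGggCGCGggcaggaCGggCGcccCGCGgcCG
Kmt2a, chr9:44881240-44881539, minus strand: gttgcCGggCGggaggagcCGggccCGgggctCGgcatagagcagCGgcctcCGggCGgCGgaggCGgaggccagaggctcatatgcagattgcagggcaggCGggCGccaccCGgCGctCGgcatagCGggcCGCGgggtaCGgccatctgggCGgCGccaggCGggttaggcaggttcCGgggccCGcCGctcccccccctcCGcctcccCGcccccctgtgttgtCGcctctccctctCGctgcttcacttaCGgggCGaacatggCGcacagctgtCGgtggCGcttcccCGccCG
The distal *Runx1* promoter held 2 CG dinucleotides and the proximal one 35, against a median of 7 over 32851 RefSeq promoter windows of the same length. *Kmt2a* held 36, more than 93.8% of all windows. *Tet2* was the richest member with 57, and the member windows other than the distal *Runx1* start held between 13 and 57. The motif TGTGGT, or ACCACA on the other strand, which the RUNX proteins bind, occurred 2 times in the distal *Runx1* promoter and once each in those of *Asxl1* and *Ezh2*. It occurred in 16.8% of all windows. Neither the use of a start nor methylation was measured here.

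The libraries held 12576174 to 29124022 counts per mouse. One library stood apart. In NPmut mouse 2, the deepest, genes with short transcripts ran high and genes with long transcripts ran low. The genes tested were divided into 5 equal groups by exonic length, the summed length of all annotated exons. Relative to the mean of all libraries on the log2 scale, the median gene of the shortest group was at 0.52 in NPmut mouse 2 and that of the longest group at -0.35, whereas these medians were between -0.10 and 0.09 in the other 12 libraries. The share of counts on mitochondrially encoded genes was 12.3% in this library and 6.64% to 10.05% in the others. Genes of ribosomal proteins took 2.22% against 1.32% to 1.73%. The members ran from 2588 bases for *Idh2* to 16870 for *Tet2*, with 6 of the 10 in the longest group and 0 in the shortest. Values include this mouse unless stated, and values without it are given beside those of the members that it moved most.

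The sort was checked against marker genes. *Kit* and the other 5 markers of HSPCs were detected in all groups. Their summed level was 2210 to 2600 CPM (counts scaled to library size) in control and 2320 to 2830 CPM in p53mut mice. It was 2680 to 2970 CPM in NrasG12D and 1620 to 2240 CPM in NPmut mice. *Cd79a* and *Ms4a1* of B cells and *Cd3e*, *Cd3d*, *Cd3g*, and *Cd8a* of T cells stayed under 1 CPM in every library, but the full lists of 6 markers each summed to 9.02 to 24 CPM for B cells and 40.5 to 72.7 CPM for T and NK cells over all libraries. The summed levels of other lists differed in NPmut mice. Those of the dendritic cell list and of the mast cell and basophil list differed in NrasG12D mice too. The 6 megakaryocyte markers were at 126 to 264 CPM in control and single-mutant mice and at 12.1 to 69.0 CPM in NPmut mice, and 5 of the 6 were lower in NPmut than control mice by the test used below. The 6 markers of mast cells and basophils were at 218 to 293 CPM in control and 249 to 334 CPM in p53mut mice. They were higher in NrasG12D mice, at 362 to 397 CPM. In NPmut mice they were at 82.7 to 188 CPM, with 2 called lower and 1 higher than in control mice. The 6 monocyte and macrophage markers were at 153 to 311 CPM in control and single-mutant mice and at 390 to 795 CPM in NPmut mice, with 3 called higher. The 6 erythroid markers were at 84.8 to 158 CPM in control and single-mutant mice and at 11 to 72.8 CPM in NPmut mice, with 1 called lower. The 6 dendritic cell markers were at 73.4 to 119 CPM in control and 95.3 to 150 CPM in p53mut mice. They were at 155 to 233 CPM in NrasG12D and 131 to 294 CPM in NPmut mice. Of these markers 4 were tested, and all 4 were called higher in NPmut than control mice. The part of these marker differences in the values of the members was not tested. In bulk RNA, fewer cells that express a gene and less of its RNA per cell cannot be told apart.

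All 10 members were expressed in every library, with at least 747 counts in each. Per length (RPKM, counts scaled to library total and exonic length), *Npm1* was the highest in control mice, at 218 ± 31.1 RPKM (SD, n = 3), above 99.4% of the genes tested. *Idh2* followed at 92.1 ± 9.51 RPKM. *Suz12* was at 36.0 ± 1.22, *Ezh2* at 32.3 ± 1.84, *Kmt2a* at 26.9 ± 2.08, and *Idh1* at 23.8 ± 2.91 RPKM. *Asxl1* was at 21.5 ± 0.716 and *Runx1* at 21.2 ± 3.36 RPKM. The enzymes that write and oxidize DNA methylation were the lowest, *Tet2* at 9.20 ± 1.46 RPKM and *Dnmt3a* at 8.28 ± 0.407 RPKM, at the 70.2 and 67.5 percentiles of the genes tested. Among neighbors in this order, *Kmt2a* and *Idh1*, *Idh1* and *Asxl1*, *Asxl1* and *Runx1*, and *Tet2* and *Dnmt3a* overlapped between mice, and the other neighbors did not.

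By the median, the members varied less than all genes tested within the control and single-mutant groups. The median SD over the 10 members was 0.130 (log2 CPM) in control, 0.104 in p53mut, and 0.0883 in NrasG12D mice, where the median gene tested had 0.196, 0.215, and 0.208. The largest SD of a member was 0.224 in control, 0.445 in p53mut (*Idh1*), and 0.206 in NrasG12D mice. Genes of a like expression level were not compared. In NPmut mice the median SD of the members was 0.377 and that of all genes tested 0.351. Without mouse 2 these were 0.188 and 0.244. NPmut mouse 2 was the lowest of all 13 libraries for *Dnmt3a*, *Tet2*, *Asxl1*, *Kmt2a*, and *Runx1* and the highest for *Ezh2*, *Npm1*, *Idh1*, and *Idh2*.

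**Figure D1:**
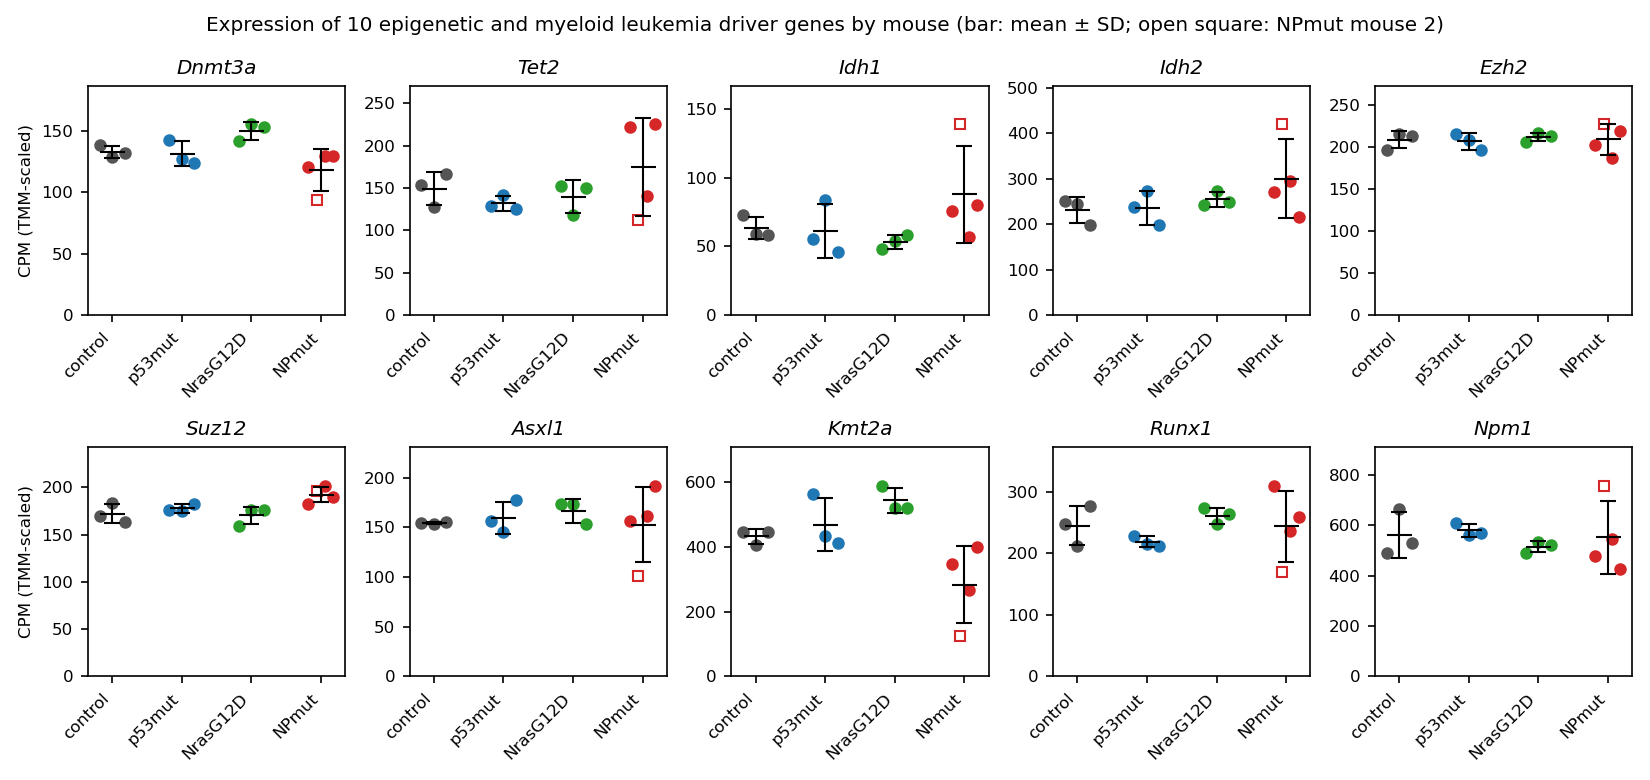
Expression of the 10 members in CPM (y axis, from 0) for each mouse of the 4 groups (x axis), with the group mean ± SD as bars and NPmut mouse 2 as an open square. The NPmut mice spread more widely than the other groups for 9 of the 10 genes in comparison with control mice, and the open square lies at the edge of the NPmut values for most of them.

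The first question was whether the leukemic genotype goes with another expression of these genes. Against control mice, 0 of the 10 members passed the test (edgeR, adjusted p under 0.05 over all genes tested) in NPmut mice, where 10.9% of all genes tested did (4.41% to 15.5% over the alternatives run). With the additional demand of a change of at least 2-fold, 6.01% of all genes tested and 0 members passed. At an unadjusted p under 0.05 there was 1 member, *Kmt2a*, and 25.6% of all genes tested, and DESeq2 also called 0 of the 10. The median log2 fold change of the members was -0.0024, against 0.014 over all genes tested. For 8 of the 10 members the 95% interval of the fold change lay inside 2-fold in either direction, so that a change of that size was outside the interval. The exceptions were *Kmt2a* and *Idh1*. The single mutants were closer to control. In p53mut mice 0 of 10 members passed, with 0% of all genes called (0% to 0.336% over the alternatives run). At an unadjusted p under 0.05 there were 0 members and 415 genes, or 2.33% of all genes tested. The members' log2 fold changes were between -0.18 and 0.12. In NrasG12D mice 0 of 10 passed, with 0.00562% of all genes called (0% to 1.45% over the alternatives run). At an unadjusted p under 0.05 there were 0 members and 1642 genes, or 9.23% of all genes tested. The members' log2 fold changes were between -0.25 and 0.33. All 10 intervals lay inside 2-fold in both single mutants. DESeq2 called 2 and 143 genes in these comparisons, and 0 members in each. *Dnmt3a* and *Kmt2a* were higher and *Idh1* lower in every NrasG12D than in every control mouse. The share of all genes with such a gap was not counted. With only the compared groups fitted, *Kmt2a* was at 0.32 ± 0.083 in NrasG12D mice (unadjusted p = 0.00198, adjusted p = 0.0792), and *Idh1* at -0.26 ± 0.110 (0.0346 and 0.276). In that fit 2544 of 16492 genes had an unadjusted p under 0.05. With all libraries *Kmt2a* was at 0.33 ± 0.296.

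**Figure D2:**
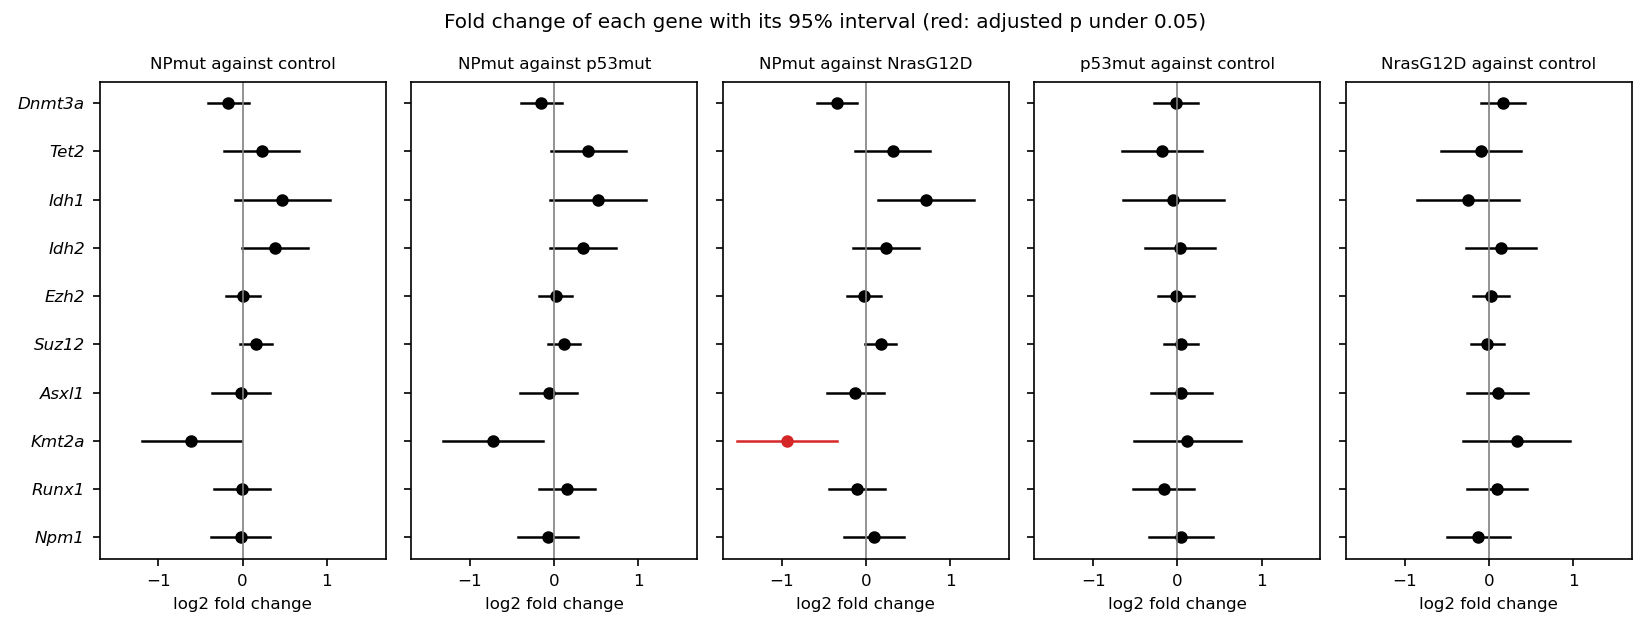
Log2 fold change (x axis) of each member (y axis) with its 95% interval in 5 comparisons, with calls in red. Only *Kmt2a* in NPmut against NrasG12D mice is red, at -0.94, and its intervals and those of *Idh1* are the widest in the NPmut comparisons.

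With all mice in the fit, *Kmt2a* showed the largest difference of the members in each comparison of NPmut mice. That of *Tet2* was larger in size without NPmut mouse 2, against control mice (0.39 against -0.36, log2) and against p53mut mice (0.57 against -0.48). The level of *Kmt2a* was 405, 445, and 446 CPM in the control mice, 411, 434, and 562 in the p53mut mice, and 519.8, 521, and 589 in the NrasG12D mice. In the NPmut mice it was 346, 124, 266, and 399 CPM in mice 1 to 4. All NPmut mice were thus below all other mice, and NPmut mouse 2 was far below the rest of its group. *Kmt2a* was the only member for which NPmut and control mice did not overlap, a pattern that 22% of all genes tested showed. The log2 fold change against control was -0.61 ± 0.275 (SE), with a 95% interval of -1.20 to -0.02 and an adjusted p of 0.182, so that the difference was not called. Leaving out NPmut mouse 2 gave -0.36 ± 0.140 (adjusted p = 0.122). Against p53mut mice it was -0.73 ± 0.275 (adjusted p = 0.119), and without NPmut mouse 2 it was called, at -0.48 ± 0.141 (adjusted p = 0.0423).

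Against NrasG12D mice *Kmt2a* fell by 0.94 on the log2 scale (SE 0.275, 95% interval -1.53 to -0.35, adjusted p = 0.0496). This was the only call among the 10 members in that comparison, in which 8.88% of all genes tested were called (3.29% to 13.3% over the alternatives run), so that the share of members called was near the background. The call lay at the edge of the threshold. It was lost with RLE factors, without the filter on low counts, with only the compared groups in the fit (with or without the replicate number as a block), and without any 1 of the 3 NrasG12D mice, NPmut mouse 1, or NPmut mouse 3. Without NPmut mouse 2 the difference was smaller and its error too, at -0.70 ± 0.141 (adjusted p = 0.00831). With the length trend of each library removed it was -0.83 ± 0.178 (adjusted p = 0.00901).

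The interaction asks whether NPmut mice depart from the sum of the p53mut and NrasG12D effects on the log2 scale. For *Kmt2a* it was -1.06 ± 0.404 (95% interval -1.93 to -0.19, adjusted p = 0.216). None of the 10 members passed, where 1.74% of all genes tested did (0.338% to 4.84% over the alternatives run). At an unadjusted p under 0.05 there was 1 member, *Kmt2a*, and 16.1% of all genes tested. Without NPmut mouse 2 the interaction of *Kmt2a* passed, at -0.81 ± 0.199 (adjusted p = 0.0423), and with the length trend removed it was -0.996 ± 0.262 (adjusted p = 0.0568).

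*Kmt2a* is one of the longest members. With 16670 bases of exon it belongs to the longest group of genes, whose median in this mouse was 0.34 (log2) below the mean of NPmut mice 1, 3, and 4. *Kmt2a* was 1.43 below it. Among the 5 longest members, all were low in this mouse: *Dnmt3a* by 0.44, *Runx1* by 0.65, *Asxl1* by 0.74, and *Tet2* by 0.78. The 3 shortest were high, *Npm1* by 0.66, *Idh2* by 0.70, and *Idh1* by 0.99, where the median genes of their length groups were high by 0.25, 0.25, and 0.08. *Suz12*, of the next group of lengths, was high by 0.03 where the median gene of that group was at -0.10. *Ezh2*, which with 6678 bases belongs to the longest group, was high by 0.17. Whether RNA quality or library preparation differed in this mouse was not tested.

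**Figure D3:**
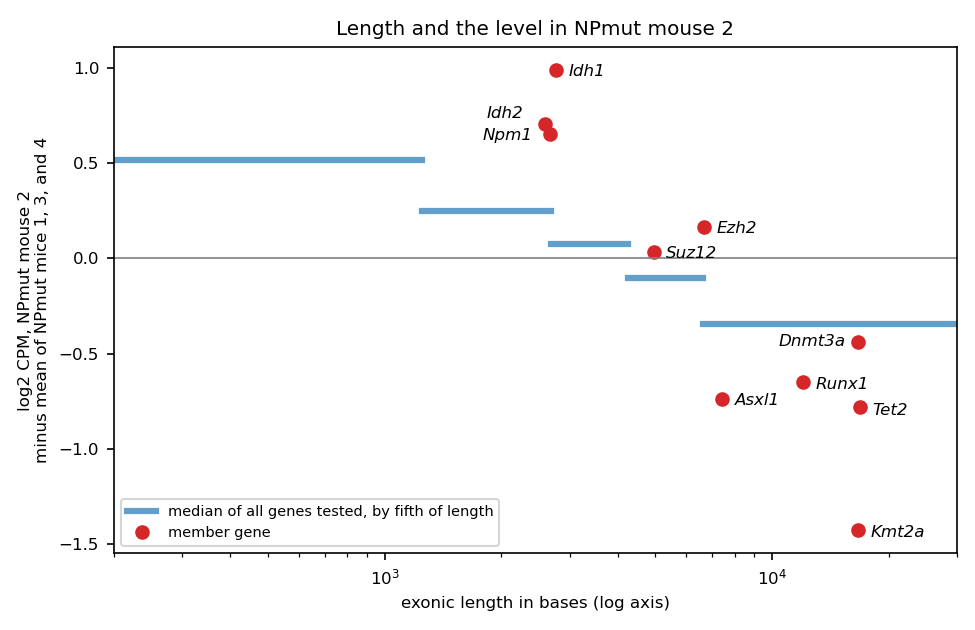
Log2 CPM in NPmut mouse 2 minus the mean of NPmut mice 1, 3, and 4 (y axis) against exonic length in bases (log x axis) for the members (points) and for the median of all genes tested in 5 groups of length (lines). The lines step down from 0.52 for the shortest genes to -0.34 for the longest, and the members lie farther from 0 than the lines for most lengths.

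*Dnmt3a*, the de novo DNA methyltransferase, differed less than *Kmt2a* but in the same groups. It was at 138, 129, and 132 CPM in control mice and 143, 127, and 124 in p53mut mice. NrasG12D mice had 141, 155, and 153 CPM. NPmut mice had 121, 93.4, 129, and 129 CPM, all below the NrasG12D mice and overlapping the other groups. Against NrasG12D mice the log2 fold change was -0.34 ± 0.114 (unadjusted p = 0.00878, adjusted p = 0.0756), and without NPmut mouse 2 it was -0.25 ± 0.080 (adjusted p = 0.0633). With the length trend removed it was -0.16 ± 0.096 (adjusted p = 0.316). Against control mice it was -0.17 ± 0.114 (adjusted p = 0.377), and -0.08 ± 0.080 without NPmut mouse 2 (adjusted p = 0.619).

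*Tet2* was split within the NPmut group. Mice 1 and 4 had 222 and 225 CPM, above all other mice, whereas mice 2 and 3 had 112 and 141 CPM. Control mice had 154, 128, and 167 CPM, p53mut mice 128, 142, and 125, and NrasG12D mice 152, 118, and 149.7. In no comparison did *Tet2* pass the test, with log2 fold changes of 0.23 ± 0.207 against control (adjusted p = 0.54), 0.41 ± 0.208 against p53mut (adjusted p = 0.256), and 0.32 ± 0.208 against NrasG12D mice (adjusted p = 0.369). The 4 NPmut mice overlapped all 3 groups. Removing the length trend, which raises *Tet2* in NPmut mouse 2, changed the call. The log2 fold changes then were 0.42 ± 0.126, 0.54 ± 0.127, and 0.47 ± 0.127, with adjusted p-values of 0.0433, 0.0123, and 0.0266. Without NPmut mouse 2 the values were close to these, at 0.39 ± 0.168, 0.57 ± 0.169, and 0.48 ± 0.168, but none was called (adjusted p = 0.177, 0.0505, and 0.102).

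**Figure D4:**
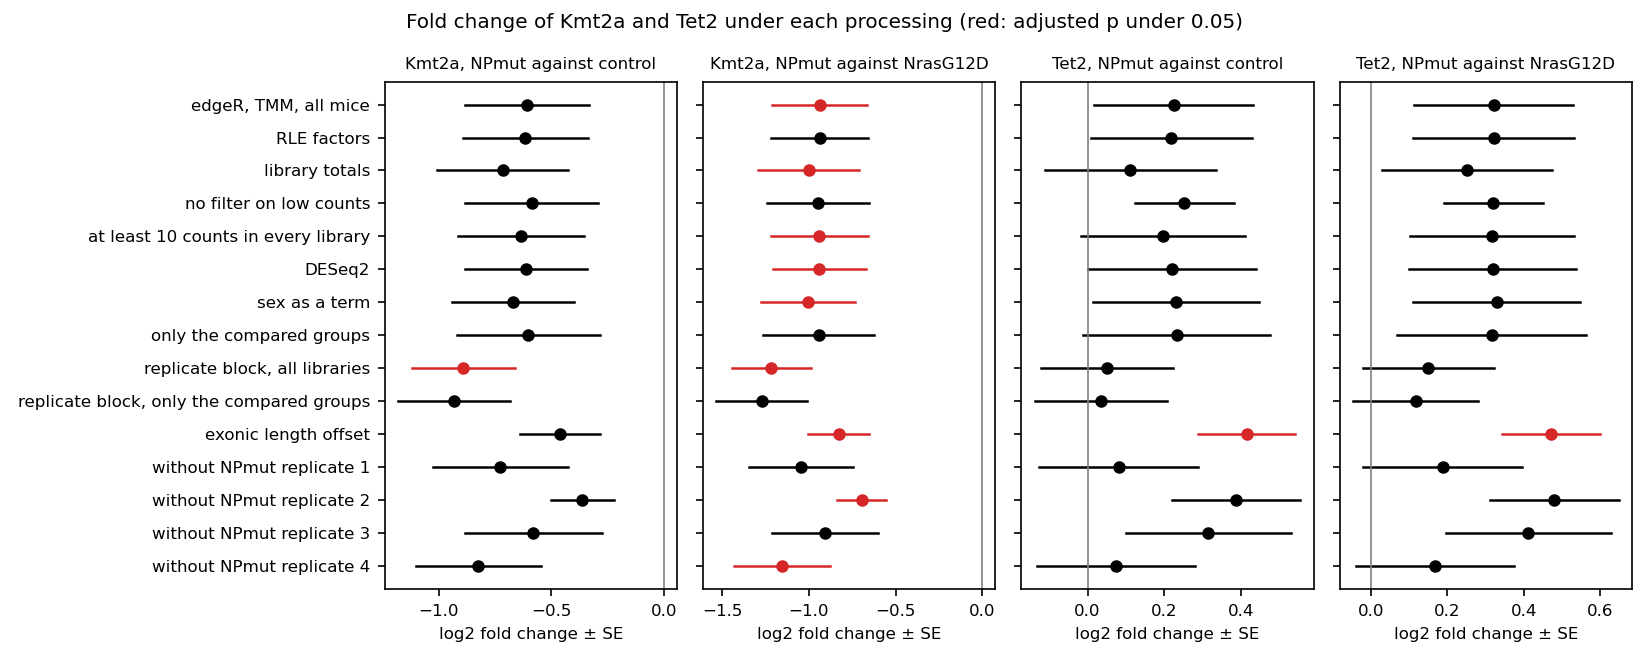
Log2 fold change ± SE (x axes) of *Kmt2a* and *Tet2* in NPmut against control and NrasG12D mice under each way of processing the counts (y axis), with calls in red. *Kmt2a* stays below 0 throughout and is smallest in size without NPmut mouse 2 (-0.36 and -0.70), and *Tet2* stays above 0 and is called with the length trend removed.

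The isocitrate dehydrogenases had higher means in NPmut mice, by less without mouse 2, and neither was called. *Idh1* was at 72.8, 59.3, and 58.5 CPM in control mice, 55.1, 83.5, and 45.6 in p53mut mice, and 47.9, 54.1, and 58.3 in NrasG12D mice. NPmut mice had 75.6, 139, 56.8, and 80.2 CPM, overlapping every group. The log2 fold change was 0.47 ± 0.262 against control (adjusted p = 0.287) and 0.72 ± 0.265 against NrasG12D mice (unadjusted p = 0.0171, adjusted p = 0.113), and DESeq2 called the second (adjusted p = 0.0454). Without mouse 2 these were 0.15 ± 0.198 and 0.40 ± 0.199. *Idh2* was at 251, 244, and 198 CPM in control mice, 239, 272, and 198 in p53mut mice, and 241, 274, and 248 in NrasG12D mice, against 271, 419.9, 295, and 215 CPM in NPmut mice. Its log2 fold change against control was 0.38 ± 0.184 (adjusted p = 0.211) and 0.17 ± 0.133 without mouse 2. The counts of *Idh1* relative to *Idh2* within a library, which do not depend on the scaling between libraries, were 0.291, 0.243, and 0.296 in control and 0.279, 0.331, 0.193, and 0.373 in NPmut mice. The log2 ratios differed by 0.05 (two-sided exact permutation test over mice, p = 0.914, where 4 against 3 mice allow no p below 0.0571).

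The PRC2 subunits were the steadiest members. *Ezh2* ranged only from 187 to 227 CPM over all 13 mice, with log2 fold changes of 0.00 ± 0.093 in NPmut against control mice (95% interval -0.20 to 0.20) and between -0.02 and 0.02 in the other comparisons of a pair of groups that were made. *Suz12* ranged from 159 to 202 CPM. It was at 164 to 183 CPM in control mice and at 182 to 202 CPM in NPmut mice, with a log2 fold change of 0.16 ± 0.087 (95% interval -0.03 to 0.35, adjusted p = 0.271), and it was higher in every NPmut than in every NrasG12D mouse (0.18 ± 0.087, adjusted p = 0.231). *Ezh1*, the paralog that replaces EZH2 in resting cells, had 484 to 833 counts per library. The counts of *Ezh2* relative to *Ezh1* were 5.37, 5.47, and 6.20 in control and 5.19, 7.21, 4.93, and 5.07 in NPmut mice, and the log2 ratios differed by -0.04 (two-sided exact permutation test, p = 0.857, smallest possible p 0.0571).

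*Asxl1* was within 153.8 to 156 CPM in the control mice, the tightest of all members and groups, and at 101 to 192 CPM in NPmut mice, where mouse 2 was the lowest. Its log2 fold change against control was -0.02 ± 0.159 (95% interval -0.36 to 0.32). *Runx1* was at 212 to 276 CPM in control mice and at 169.9 to 309.9 CPM in NPmut mice (log2 fold change -0.01 ± 0.157, 95% interval -0.34 to 0.33). *Npm1* was at 492 to 664 CPM in control and at 427 to 758 CPM in NPmut mice, again with mouse 2 the highest (log2 fold change -0.03 ± 0.166, 95% interval -0.38 to 0.33). Without mouse 2 these log2 fold changes were 0.13 for *Asxl1*, 0.13 for *Runx1*, and -0.22 for *Npm1*. Reads of *Npm1* are hard to place, because 9 other genes, 8 of them processed pseudogenes, share at least 1% of its stretches of 50 bases, and 24.3% of these stretches in *Npm1* occur in one of them. Those genes held 32.7% as many counts as *Npm1*. With their counts added the log2 fold change was -0.02. The other 9 members had no such copies. *Asxl1* overlaps *2500004C02Rik* on the opposite strand, whose counts came to 2.67% of its own.

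Against p53mut mice, 0 of 10 members passed the test in NPmut mice, where 9.95% of all genes did (3.52% without p53mut mouse 3). The groups did not overlap for 1 of 10 members, *Kmt2a*, where 19.6% of all genes tested did not overlap. Against NrasG12D mice, the groups did not overlap for *Kmt2a* and *Dnmt3a*, lower in NPmut, and for *Suz12*, higher, or 3 of 10 members, where 20.5% of all genes tested did not overlap. The comparisons of NPmut mice share the 4 NPmut libraries and are not independent of each other.

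Correlations between members depended on NPmut mouse 2. Over the 13 libraries 13 of the 45 pairs of members had a Pearson r of at least 0.7 in size (log2 CPM). Without NPmut mouse 2 it was 4 pairs. *Tet2* and *Runx1* ran together (r = 0.75 with and 0.72 without mouse 2), and *Npm1* ran against both, with r of -0.80 and -0.78 for *Tet2* and -0.84 and -0.71 for *Runx1*. *Suz12* and *Kmt2a* ran against each other (r = -0.72 and -0.79). The correlation of *Kmt2a* with *Asxl1* went from 0.75 to 0.03. Those pairs share libraries, depth, and any shift in cell composition. Of the 12977 tested genes whose log2 CPM averaged 1 or more, the most alike in pattern were *Mga* (r = 0.99) and *Pogz* (0.98) for *Kmt2a*, *Zfp704* (0.94) and *Proser3* (0.93) for *Dnmt3a*, and *Ift140* (0.97) and *Zfp652* (0.96) for *Asxl1*. *Mrps22* (0.96) and *Cct4* (0.95) were nearest to *Npm1*, *Tubb5* (0.97) and *Cap1* (0.96) to *Idh2*, and *Atp6v1a* (0.96) and *Prtn3* (0.95) to *Idh1*. *Itpkb* and *Gm45203* (0.91 and 0.90) were nearest to *Runx1*, *Gm37084* and *B930086L07Rik* (0.96 and 0.95) to *Tet2*, *Ppp1r2* and *3010003L21Rik* (0.93 and 0.90) to *Suz12*, and *Arl16* and *Cdc42ep3* (0.88 and 0.87) to *Ezh2*. These pairs had r between 0.81 and 0.97 without NPmut mouse 2.

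The genes that work with the members were examined in 12 lists of 157 genes, of which 154 were tested (*Asxl3*, *Npm2*, and *Wt1* were too low). Against control mice 5 were called higher and 13 lower in NPmut mice, or 11.7%, against 10.9% of all genes tested. Without NPmut mouse 2 it was 6 higher and 13 lower, 16 of these 19 being among the 18, and with the length trend removed 5 higher and 14 lower, 17 of them among the 18. In p53mut and in NrasG12D against control mice 0 of the 154 were called.

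Of the 8 other genes of DNA methylation and demethylation, 1 was called, *Tet1*, a paralog of *Tet2*. It fell from 50.2 ± 0.79 to 28.2 ± 9.66 CPM (log2 fold change -0.84 ± 0.225, adjusted p = 0.028). The maintenance methyltransferase *Dnmt1* (-0.03 ± 0.099) and *Tet3* (-0.07 ± 0.193) were not called. Of 10 other PRC2 genes 2 were called, both accessory subunits: *Phf19*, which guides PRC2 to chromatin, rose by 0.42 ± 0.126 on the log2 scale (adjusted p = 0.0444), and *Epop* by 0.79 ± 0.176 (adjusted p = 0.0105), although *Phf19* was not called without NPmut mouse 2 (0.41 ± 0.133, adjusted p = 0.0637). Of 16 genes of PRC1, the complex that binds the mark of PRC2 and adds ubiquitin to H2A, *Cbx6* fell (-0.65 ± 0.191, adjusted p = 0.0409). None of the 9 tested genes of the ASXL family and the BAP1 complex was called or had an unadjusted p under 0.05.

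Of 13 other KMT2 methyltransferases and subunits only *Psip1*, which encodes LEDGF, the factor that ties KMT2A and menin to chromatin, was called, at -0.38 ± 0.106 (adjusted p = 0.0337). The median log2 fold change of this list was -0.16, and -0.07 without NPmut mouse 2. Among 9 partners of KMT2A fusions and *Dot1l*, *Mllt3*, the gene of AF9, fell from 44.5 ± 9.70 to 19.7 ± 5.32 CPM (-1.18 ± 0.229, adjusted p = 0.00505). A further 9 genes are known for high expression in KMT2A-rearranged or *NPM1*-mutant leukemia, and 0 of them were called higher in NPmut mice. Of all 17795 genes tested, 958 were called higher and 986 lower. *Mecom* (-1.89 ± 0.372, adjusted p = 0.00602) and *Meis1*, the *Hox* cofactor (-1.73 ± 0.298, adjusted p = 0.00339), were called lower, and the median of the list was -0.63. *Hoxa9* was at 22.0 CPM in control and 20.3 CPM in NPmut mice (-0.12 ± 0.146, adjusted p = 0.672). *Hoxa7* was at 22.1 and 29.6 CPM (0.42 ± 0.155, adjusted p = 0.0982).

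Of 10 factors related to RUNX1, 3 were called lower and 1 higher in NPmut mice. *Gata2* fell from 149 ± 23.9 to 47.7 ± 28.6 CPM (-1.64 ± 0.364, adjusted p = 0.0142), *Tal1* from 97.3 ± 7.09 to 40.8 ± 15.9 CPM (-1.26 ± 0.24, adjusted p = 0.00511), and *Lmo2* from 324 ± 23.4 to 232 ± 22.6 CPM (-0.48 ± 0.114, adjusted p = 0.015). *Lyl1*, a relative of *Tal1*, was the only one called higher (0.35 ± 0.094, adjusted p = 0.0259). *Gata2*, *Tal1*, and *Mecom* are also expressed in megakaryocytes or mast cells, whose marker lists were lower in the same mice. *Gata2* is itself on the lists of HSPC and mast cell markers, and *Flt3* and *Kit*, named next, are on marker lists too.

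Of 30 other genes mutated in myeloid leukemia, *Flt3*, a receptor tyrosine kinase of progenitors and dendritic cells, was the only one called higher, from 71.8 ± 24.2 to 159 ± 66.7 CPM (log2 1.15 ± 0.313, adjusted p = 0.0336). It was at 159 ± 36.0 CPM in NrasG12D mice as well. *Kit* fell by 0.54 (SE 0.15, adjusted p = 0.0322) on the log2 scale and *Cux1* by 0.44 (SE 0.132, adjusted p = 0.0471), but *Cux1* was not called without NPmut mouse 2 (-0.35 ± 0.110, adjusted p = 0.0508) or with the length trend removed (-0.16 ± 0.110, adjusted p = 0.377). The 9 tested nucleophosmin and nucleolar genes and the 15 genes of the citrate cycle and 2-hydroxyglutarate metabolism had 0 calls, with 0 and 1 gene at an unadjusted p under 0.05, and medians of 0.05 and 0.00. Of 16 proliferation genes only *Ccnb1* was called, at -0.51 ± 0.149 (adjusted p = 0.0407), and the median was 0.00.

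**Figure D5:**
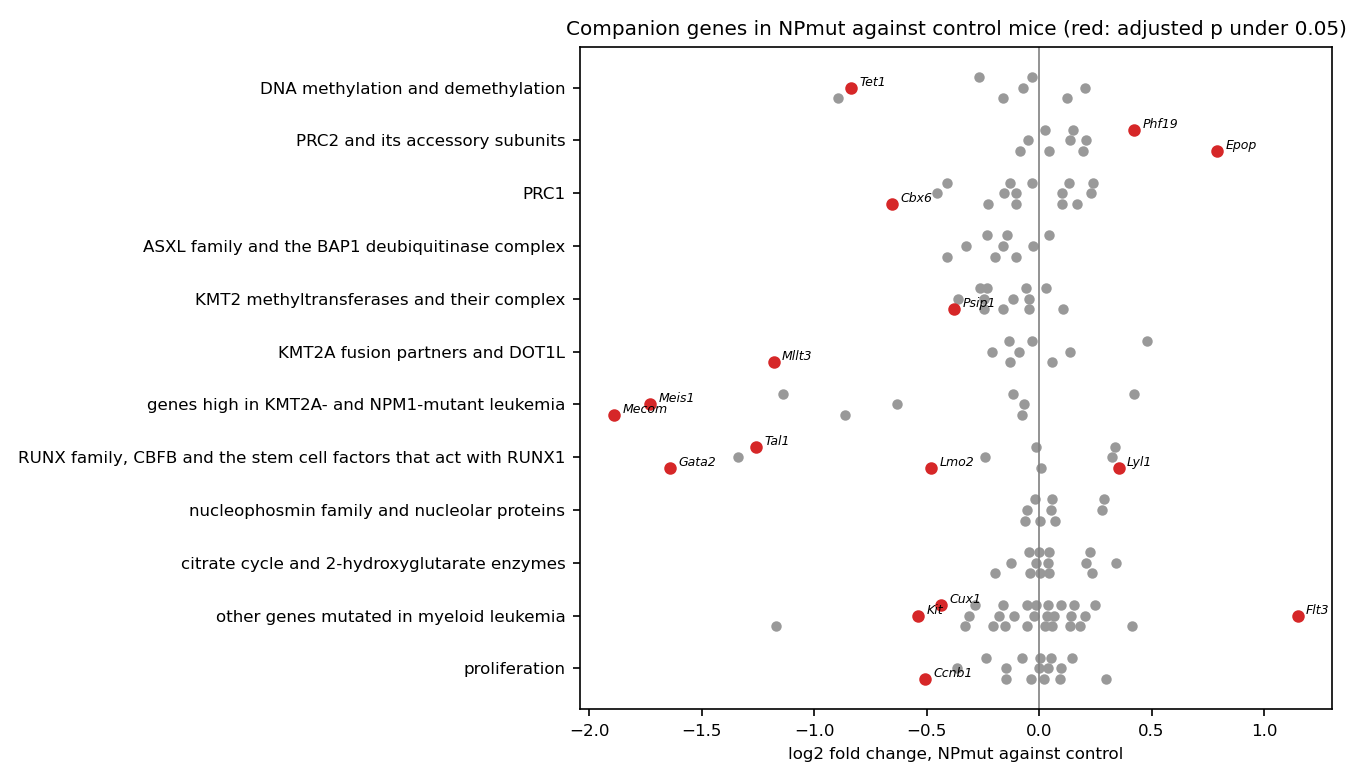
Log2 fold change in NPmut against control mice (x axis) of the tested companion genes, 1 point each, by list (y axis), with called genes in red and named. Some genes are not shown. Of the genes in red, *Mecom*, *Meis1*, *Gata2*, and *Tal1* differ the most, at -1.89 to -1.26, while most points of the chromatin lists lie within 0.5 of 0.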

How the data were processed

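RNA was isolated from 50000 sorted Lin-cKit+ BM cells of each of 13 mice, and libraries were made with a stranded total RNA kit for low input. The authors deposited raw counts per gene for all mice in 1 table of 54838 Ensembl identifiers. The submitters' processing notes name STAR 2.6.1d, R 3.6.1, DESeq2 1.26.0, and GRCm38.p6. The counting program, its annotation, and the handling of strand are not given in the sources used here, so that reads of a gene and an antisense partner may not be separated. The mouse code in each sample title linked a column to its mouse. Symbols, exonic lengths, and coordinates came from GENCODE M21 (GRCm38), which holds 54809 of the identifiers, and promoter sequences from RefSeq (GRCm38.p6), which matched 9 of the 10 members (all but *Npm1*).

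Counts were fitted in R 4.3.3 with the quasi-likelihood model of edgeR 4.0.16 (robust, TMM factors, filterByExpr, a mean per group, all 13 libraries), which was tested on simulated data. Of 44944 genes with a count, 17795 were tested, with Benjamini-Hochberg adjustment across them and a threshold of 0.05. SE and 95% intervals are on the log2 scale. CPM of the members and companion genes used TMM-scaled library sizes, and log2 CPM a prior count of 2. RPKM and the CPM of the marker lists used library totals. The 10 members, the companion and marker lists, and the tests were chosen with earlier results of these data known. All members are named, and of each companion list up to 3 called genes in each direction with the largest change in NPmut against control mice. Other genes of the lists, *Hoxa7*, *Hoxa9*, *Dnmt1*, *Tet3*, and *Ezh1*, were added after their values were seen, and the values of some genes are not reported here.

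Alternatives were RLE factors, library totals, no filter, at least 10 counts in every library, DESeq2 1.42.0, only the compared groups, the replicate number as a block, sex (from the Y-linked *Ddx3y*, *Uty*, *Kdm5d*, and *Eif2s3y*) as a term, and each mouse left out. Removal of a length trend (a lowess curve of each library's deviation on exonic length, used as an offset) and the addition of counts of near-identical copies to *Npm1* were chosen after seeing the data. Same-numbered mice deviated together in every pair only for control and p53mut mice (r of 0.166, 0.163, and 0.152), and a fit of these groups with the number as a block called 56 genes and 0 members. The labels do not tie the numbers to litters or days. Replicates are single mice. Depth was 12576174 to 29124022 counts per mouse, and each member had at least 747 counts in every library.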

Additional observations from a re-analysis of the deposited data

Results flagged for a closer look

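*Kmt2a* differed between the NPmut and NrasG12D effects by a test of the difference itself: the effect in NPmut mice was -0.94 (log2) relative to that in NrasG12D mice (adjusted p = 0.0496). This is the comparison of NPmut with NrasG12D mice given above, whose call lay at the edge of the threshold. All 4 NPmut mice were below, and all 3 NrasG12D mice above, the control mean of 432 CPM, with 121 CPM between the highest NPmut and the lowest NrasG12D mouse. NPmut and NrasG12D mice did not overlap for 20.5% of all genes tested. The share of genes with this arrangement around the control mean was not counted.

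*Dnmt3a* showed the same arrangement around the control mean of 133 CPM, with 11.7 CPM between the highest NPmut and the lowest NrasG12D mouse. The test of this difference gave an adjusted p of 0.0756 (log2 fold change -0.34).

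In none of the members was a single NPmut mouse flagged by Dixon's test for 4 values, NPmut mouse 2 included. Groups of 3 were not tested.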

How the results depend on the processing

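In p53mut and in NrasG12D against control mice 0 members were called under every alternative run. In NPmut against control mice 0 were called, except 1 without the filter on low counts (*Idh2*), 2 with a replicate block over all libraries (*Kmt2a*, *Idh2*), and 1 with the length trend removed (*Tet2*), and the count was 0 throughout when each mouse was left out. Against p53mut mice 2 were called without the filter (*Tet2*, *Idh2*), 2 with the block over all libraries (*Kmt2a*, *Idh2*), 1 with the block and only the compared groups (*Kmt2a*), and 2 with the length trend removed (*Tet2*, *Kmt2a*), with a range of 0 to 1 when each mouse was left out (*Kmt2a* without NPmut mouse 2 or 4). Against NrasG12D mice the count of 1 went to 0 with RLE factors, without the filter, with only the compared groups, and with the block in these groups. It went to 2 with DESeq2 (*Kmt2a*, *Idh1*), the block over all libraries and sex as a term (*Kmt2a*, *Dnmt3a* in both), and the length trend removed (*Kmt2a*, *Tet2*), and ranged from 0 to 2 when each mouse was left out. In the interaction 0 to 1 members were called when each mouse was left out, *Kmt2a* without NPmut mouse 2, and 0 otherwise.

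The share of all genes called depended on single mice. In NPmut against control mice it was 6.42%, 6.28%, and 4.41% without control mouse 1, 2, or 3, and 5.45% with only the compared groups. Against p53mut mice it was 4.61% and 3.52% without p53mut mouse 1 or 3, and against NrasG12D mice 3.88%, 3.6%, and 4.8% without NrasG12D mouse 1, 2, or 3. In the interaction it ranged from 0.338% (without control mouse 2) to 3.72% (without NPmut mouse 3) when each mouse was left out.

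Log2 fold changes near 0 against control changed sign. *Ezh2* was at -0.007 with RLE factors and with DESeq2, -0.12 with library totals, -0.03 with at least 10 counts in every library, and -0.023 and -0.019 with the replicate block over all and over the compared libraries. *Asxl1* (0.013), *Runx1* (0.024), and *Npm1* (0.033) changed sign without the filter, *Npm1* with the block (0.071 and 0.068), and *Dnmt3a* (0.048), *Asxl1* (0.038), and *Runx1* (0.131) with the length trend removed. When each mouse was left out, the ranges were -0.154 to 0.131 for *Asxl1*, -0.042 to 0.053 for *Ezh2*, -0.153 to 0.128 for *Runx1*, and -0.219 to 0.113 for *Npm1*, -0.164 to 0.029 for the log2 ratio of *Ezh2* to *Ezh1*, and -0.077 to 0.24 for that of *Idh1* to *Idh2*. None of these was called.

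The block over all libraries gives NPmut mouse 4 a term of its own and so drops it. Outside control and p53mut mice the mice share only a number. Apart from the construction of the length trend, the cause of these differences was not tested. The p-values weigh each difference against the spread between mice within groups. In the fit of all 13 libraries this spread was shared over the 4 groups, so that it includes groups not compared.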
